A study of Mus musculus with 8 samples.

Results

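The genes described here are 30 genes of cholesterol synthesis and lipogenesis, read in gastrocnemius, the large calf muscle, of mice with and without a disrupted glucocorticoid receptor. They are a list of enzymes and regulators chosen by function, with earlier results of these data known. Each gene was represented by the probe set with the highest mean log2 signal over all 8 arrays, among probe sets with a single gene symbol in the platform annotation. All 30 were found among the 18193 genes on the arrays, and all 30 were above the signal filter that kept 11062 genes for testing. The filter was set on the mean log2 signal, at the level of a signal of 19.4. Total RNA from 8 muscles was hybridised to 1 Affymetrix array each. The 4 control samples were labelled wild type and the 4 GR_KO samples GR KO, both on a C57/Bl6J background. The design text writes the mutants as GR(i)skm-/-. The promoter that drove the deletion, its induction, and the age and sex of the mice are not stated in the sources at hand. The labels do not say that samples came from separate animals, so each p-value reflects only how these samples spread, and part of that spread may be technical.

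Cells make cholesterol from acetyl-CoA through mevalonate, isoprenoids, squalene and lanosterol, and make fatty acids from acetyl-CoA through malonyl-CoA. The SREBP transcription factors, encoded by Srebf1 and Srebf2, raise the expression of the enzymes of both routes when membranes are short of sterol or when insulin signals plenty, and INSIG proteins hold them in the endoplasmic reticulum when sterols are abundant. The glucocorticoid receptor, encoded by Nr3c1, is a hormone-activated transcription factor, and in liver and fat glucocorticoids and insulin together favour lipogenesis. Skeletal muscle makes little fatty acid for storage, and malonyl-CoA made there mainly restrains the entry of fatty acids into mitochondria.

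SREBPs bind sterol regulatory elements, usually beside boxes for the factor NF-Y, so the bases before the start sites were searched for such motifs. RefSeq promoters (GRCm38.p6) were matched for 23 of the 30 genes, with 29 start sites, and the 250 bases before each start were read. The sequences shown belong to the enzyme whose window held the sterol motif and to the 2 genes with the lowest p-values in the expression comparison below. Capitals mark matches, with the NF-Y box CCAAT read as ATTGG on the other strand.
Hmgcs1, chr13:119690101-119690350, plus strand: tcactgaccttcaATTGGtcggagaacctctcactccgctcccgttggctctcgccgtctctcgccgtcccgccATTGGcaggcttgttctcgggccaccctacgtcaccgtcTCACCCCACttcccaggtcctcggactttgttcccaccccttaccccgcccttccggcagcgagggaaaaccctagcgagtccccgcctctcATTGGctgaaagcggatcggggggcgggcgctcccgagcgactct
Idi1, chr13:8885356-8885605, plus strand: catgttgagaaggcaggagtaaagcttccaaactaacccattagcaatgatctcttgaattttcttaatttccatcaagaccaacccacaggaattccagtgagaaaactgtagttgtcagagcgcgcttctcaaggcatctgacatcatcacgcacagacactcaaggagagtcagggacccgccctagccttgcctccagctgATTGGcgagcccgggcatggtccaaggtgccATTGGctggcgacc
Srebf1, chr11:60210472-60210721, minus strand, 1 of its 3 start sites: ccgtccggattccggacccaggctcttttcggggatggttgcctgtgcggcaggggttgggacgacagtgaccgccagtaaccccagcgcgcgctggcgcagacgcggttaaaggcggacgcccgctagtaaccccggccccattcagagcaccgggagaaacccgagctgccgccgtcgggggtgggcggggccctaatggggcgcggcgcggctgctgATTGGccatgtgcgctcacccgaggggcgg

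The Hmgcs1 window held the core of a sterol regulatory element, TCACNCCAC, 137 to 129 bases before the start, with 3 CCAAT boxes around it. It was the only 1 of the 23 genes with that core, which was present in the windows of 1.25% of the 8953 tested genes that had a promoter. The CCAAT box stood in the windows of 19 of the 23 genes, or 82.6%, against 39.7% of those tested genes. The E-box CACGTG stood in 5 of the 23, or 21.7%, against 10.2%. Motifs were searched on both strands, and no matches of different motifs overlapped. The 5 genes with an E-box were Dhcr7, Elovl5, Hsd17b7, Insig1 and Sc5d. A match describes the letters of the window and does not show that a factor binds there.

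One array stood apart before any comparison was made. On control replicate 4 the mean log2 signal of 45 spike-in probe sets was 5.89, against 4.90 to 5.45 on the other 7 arrays, and the summed signal of 10 fast-fibre markers was 265717, against 105408 to 169002. Slow-fibre markers were lowest there, at a summed signal of 7233 for 8 genes against 12262 to 24414. For the cholesterol synthesis and lipogenesis genes, log2 fold changes without this array are given where they changed sign or moved by more than 1.5 times. This holds for the probe set that stood for each gene. It was not done throughout for other probe sets, further genes of these routes or marker genes, so their values may also depend on this array. The muscle genes Acta1, Ckm and Myh4 had signals between 9274 and 31176 on every array. The targeted gene, Nr3c1, had signals of 377, 307, 307 and 352 on control replicates 1 to 4 and of 134, 79, 76 and 94 on GR_KO replicates 1 to 4 at probe set 1460303_at. At its brightest probe set, 1421867_at, which stood for the gene in the test, the groups overlapped (log2 fold change -1.07, adjusted p = 0.777).

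None of the 30 genes passed the threshold of adjusted p 0.05 in limma, in either direction. Over all genes tested 0.0542% passed. At an unadjusted p under 0.05 there were 2 of the 30, Srebf1, with higher signals in GR_KO muscle, and Idi1, with lower ones. Of all genes tested 4.63% had such a p, 2.37% with higher and 2.26% with lower signals. In 0 of the 30 did the control and GR_KO signals separate without overlap, against 2.58% of all genes tested. The log2 fold change, GR_KO minus control, was above 0 in 17 genes and below 0 in 13, while 52.2% of all genes tested were above 0 and 47.8% below. Its median was 0.03, beside 0.01 over all genes tested, and the median size without its sign was 0.17, beside 0.16.

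The comparison set limits on changes over 2-fold for most of the 30 genes, and on changes over 1.5-fold for fewer. The 95% interval of the log2 fold change lay within a 2-fold change either way for 27 of the 30 genes, as it did for 84.9% of all genes tested. The exceptions were Idi1, Elovl6 and Sqle. The interval lay within 1.5-fold for 11 of the 30, or 36.7%, against 42.0% of all genes tested. Over the 30 genes its median half-width was 0.51 on the log2 scale.

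Single arrays moved many of these values. With each of the 8 arrays left out in turn, 11 to 22 of the 30 log2 fold changes kept their sign and stayed within 1.5 times their value. Without control replicate 4, 4 changed sign, those of Fdps, Nsdhl, Fasn and Mvd, 12 became smaller by more than that and 3 larger. Without GR_KO replicate 4, 7 changed sign. The ranges below are over the 8 arrays left out in turn.

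**Figure D1:**
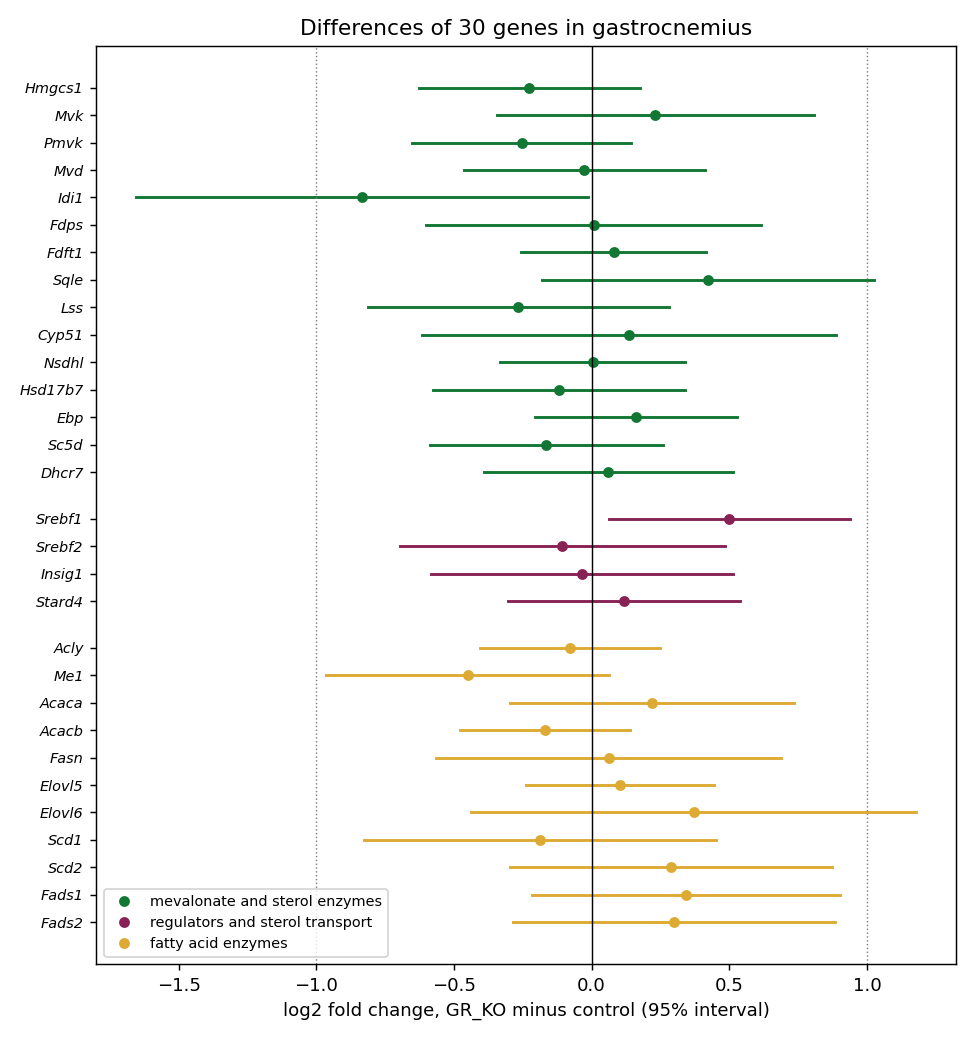
Log2 fold change of each of the 30 genes, GR_KO minus control, with its 95% interval from limma (4 arrays a group), ordered along the routes, with dotted lines at a 2-fold change. The intervals of Idi1 and Srebf1 leave out 0 before adjustment for the number of genes tested, and the other 28 hold it.

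At the head of the cholesterol route, Hmgcs1 makes hydroxymethylglutaryl-CoA. Its signals were 712, 619, 493 and 714 in control muscle and 670, 529, 580 and 403 in GR_KO muscle. The groups overlapped, and the log2 fold change was -0.23 ± 0.18 (SE, adjusted p = 0.880). It ranged from -0.34 without control replicate 3 to -0.09 without GR_KO replicate 4. The other Hmgcs1 probe sets above the filter had log2 fold changes of -0.33, -0.59 and -0.74, all below 0. The dimmest of these, 1433446_at, had signals of 44, 48, 65 and 67 against 47, 31, 20 and 41, which also overlapped (adjusted p = 0.963 over 22518 probe sets).

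The next enzymes turn mevalonate into isopentenyl diphosphate. Pmvk, the kinase of phosphomevalonate, had signals of 119, 127, 89 and 117 in controls and 94, 117, 93 and 76 in GR_KO muscle. Its log2 fold change was -0.25 ± 0.18 (SE, adjusted p = 0.880), and the lowest control lay below 3 of the 4 GR_KO signals. It ranged from -0.36 without control replicate 3 to -0.15 without GR_KO replicate 4. Mvk, mevalonate kinase, had 0.23 at its brightest probe set, or 0.07 without control replicate 4, and -0.36 at the other, so its probe sets disagreed in sign. Mvd, the decarboxylase, had -0.03 and -0.13, the first being 0.02 without control replicate 4.

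Idi1, which interconverts the 2 isoprenoid building blocks, had the largest difference of the 30 genes. Its signals were 38, 35, 52 and 74 in control muscle and 46, 15, 21 and 35 in GR_KO muscle, so GR_KO replicates 2 and 3 were the lowest and the other GR_KO signals lay within the control range. The difference was 1.78-fold, with a log2 fold change of -0.83 ± 0.37 (SE, 95% interval -1.66 to -0.01, adjusted p = 0.880). It ranged from -1.10 without GR_KO replicate 1 to -0.56 without GR_KO replicate 2, and was -0.62 without control replicate 4. These signals were dim, at a mean of 49.8 ± 17.8 in controls (SD, n = 4). The other Idi1 probe set was below the filter.

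The following enzymes build squalene and close it into a sterol. Fdps, which makes farnesyl diphosphate, and Fdft1, squalene synthase, had log2 fold changes of 0.01 and 0.08. For Fdps the value was -0.24 without control replicate 4, and for Fdft1 it was 0.02. Sqle, squalene epoxidase and a rate-limiting enzyme of the route, had signals of 21, 38, 44 and 24 in controls and 39, 36, 43 and 45 in GR_KO muscle. Controls 1 and 4 were low and controls 2 and 3 lay within the GR_KO range. The log2 fold change of Sqle was 0.42 ± 0.27 (SE, adjusted p = 0.880), and it ranged from 0.25 without control replicate 1 to 0.60 without control replicate 3. Lss, which closes the sterol rings to lanosterol, had -0.27, or -0.11 without control replicate 1.

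The late enzymes turn lanosterol into cholesterol, and their log2 fold changes lay between -0.17 and 0.16. Those of Cyp51, the lanosterol demethylase, Nsdhl, Ebp and Dhcr7, which takes the final step in one branch, were 0.14, 0.00402, 0.16 and 0.06. Those of Sc5d and Hsd17b7 were -0.17 and -0.12. Without control replicate 4 the values were -0.08 for Nsdhl, 0.09 for Ebp, 0.17 for Dhcr7 and -0.05 for Hsd17b7. Cyp51 and Dhcr7 turned to -0.16 and -0.04 without control replicate 1, Hsd17b7 to 0.02 without GR_KO replicate 4, and Sc5d was -0.04 without GR_KO replicate 3. For Hsd17b7, a ketosteroid reductase, probe set 1448865_at had signals of 46, 41, 46 and 38 in controls and 33, 35, 29 and 29 in GR_KO muscle. It was the only probe set among the 49 of these genes above the filter whose groups did not overlap, against 2.19% of all probe sets above the filter, and it was singled out after its values were seen. Its log2 fold change was -0.44 (adjusted p = 0.963), while the brightest Hsd17b7 probe set, with signals of 72, 73, 53 and 78 against 79, 64, 66 and 47, had -0.12. As a group the 15 sterol enzymes had 8 log2 fold changes above 0 and 7 below, with a median of 0.00402.

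Among the regulators, Srebf1 had the lowest p-value of the 30 genes. Its signals were 692, 789, 764 and 508 in control muscle and 693, 991, 1243 and 993 in GR_KO muscle. GR_KO replicates 2, 3 and 4 were above every control, and GR_KO replicate 1 lay between controls 1 and 3. The mean signal was 688 ± 127 in controls and 980 ± 225 in GR_KO muscle (SD, n = 4). The difference did not pass the threshold (log2 fold change 0.50 ± 0.20 SE, 95% interval 0.06 to 0.94, adjusted p = 0.880). Without control replicate 4, the lowest control, the log2 fold change was 0.36, and without GR_KO replicate 1 it was 0.66. Srebf1 had a single probe set, which does not tell apart transcripts from its different start sites.

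Srebf2, whose product acts mainly on the cholesterol enzymes, had no settled direction. Its signals were 119, 93, 194 and 157 in controls and 183, 127, 127 and 85 in GR_KO muscle, with a log2 fold change of -0.11 ± 0.27 (SE, adjusted p = 0.941). It ranged from -0.29 without control replicate 2 to 0.08 without GR_KO replicate 4, and was -0.04 without control replicate 4. Its other probe set had 0.15, from signals of 39, 65, 81 and 37 against 51, 54, 55 and 75. The lowest of these was on control replicate 4. The difference between Srebf1 and Srebf2 was not tested. Insig1, itself a target of SREBPs, had signals of 121, 164, 139 and 86 against 110, 135, 171 and 85 and a log2 fold change of -0.03, from -0.21 without control replicate 4 to 0.14 without GR_KO replicate 4. Stard4, a carrier of cholesterol between membranes, had 0.12 at its brightest probe set, or 0.07 without control replicate 4, and -0.40 and 0.16 at the others.

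**Figure D2:**
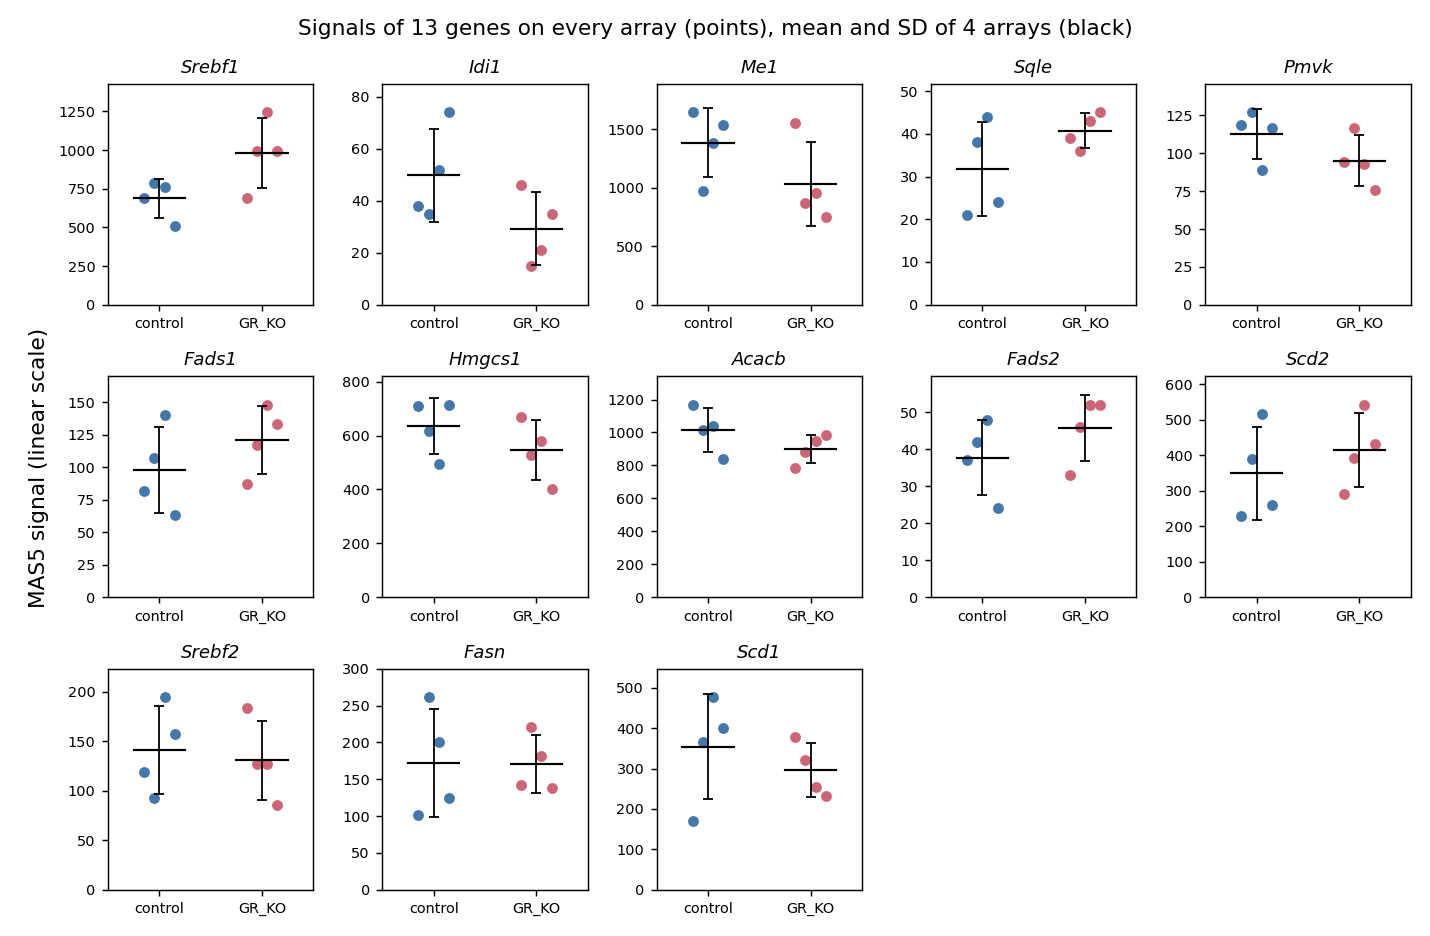
MAS5 signals on a linear scale for 13 genes on all 8 arrays, with 1 point per array and the mean and SD of 4 arrays in black. The points of both groups overlap in every panel, Srebf1 and Idi1 included.

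The enzymes that supply fatty acid synthesis with acetyl-CoA and NADPH were Acly, ATP citrate lyase, and Me1, the cytosolic malic enzyme. Me1 had signals of 1643, 971, 1379 and 1536 in control muscle and 1552, 868, 956 and 753 in GR_KO muscle. GR_KO replicate 1 lay with the upper controls and control replicate 2 with the GR_KO arrays. The log2 fold change was -0.45 ± 0.23 (SE, adjusted p = 0.880), and it ranged from -0.67 without GR_KO replicate 1 to -0.32 without GR_KO replicate 4. The other Me1 probe set, 1430307_a_at, had -0.43, from signals of 948, 820, 1232 and 669 against 842, 615, 588 and 631 (adjusted p = 0.963 over all probe sets above the filter). Acly had -0.08, or -0.00735 without control replicate 4, with -0.09 and -0.15 at its other probe sets above the filter.

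Acetyl-CoA carboxylase makes malonyl-CoA, in the cytosol from Acaca and at the mitochondrial surface from Acacb, the form typical of muscle. Acacb had signals of 1167, 1015, 1038 and 839 in controls and 787, 881, 946 and 984 in GR_KO muscle. Its log2 fold change was -0.17 ± 0.14 (SE, adjusted p = 0.880), and the 95% interval from -0.48 to 0.14 was the narrowest of the 30. It ranged from -0.26 without control replicate 4, the lowest control, to -0.10 without control replicate 1, and it was 0.43 when averaged with a second Acacb probe set whose signals were 1 to 13. Acaca had 0.22, from signals of 70, 141, 116 and 90 against 99, 108, 158 and 112, and ranged from 0.04 without control replicate 1 to 0.38 without control replicate 2. Both intervals held 0.

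Fasn, fatty acid synthase, had signals of 102, 261, 201 and 124 in control muscle and 142, 221, 182 and 138 in GR_KO muscle. All 4 GR_KO signals lay inside the control range, and the log2 fold change was 0.06 ± 0.28 (SE, 95% interval -0.56 to 0.69, adjusted p = 0.973). It ranged from -0.16 without control replicate 1 to 0.30 without control replicate 2, and was -0.06 without control replicate 4. Elovl6, which lengthens palmitate, had 0.37, but 0.06 without control replicate 4 and 0.61 without control replicate 2. Elovl5, which lengthens polyunsaturated chains, had 0.10, or 0.00515 without GR_KO replicate 1, with -0.01 at its other probe set.

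The stearoyl-CoA desaturases Scd1 and Scd2 put a double bond into saturated chains. Scd1 had signals of 171, 366, 476 and 401 in controls and 377, 321, 254 and 231 in GR_KO muscle, with a log2 fold change of -0.19 ± 0.29 (SE, adjusted p = 0.912). Control replicate 1 was the lowest of the 8 arrays, and without it the value was -0.50. Without control replicate 3, the highest, it was -0.01, and without control replicate 4 it was -0.09. Scd2 had 228, 391, 516 and 261 against 291, 393, 542 and 432, and a log2 fold change of 0.29 ± 0.27 (SE, adjusted p = 0.881). It ranged from 0.11 without control replicate 1 to 0.50 without control replicate 3, with 0.15 without GR_KO replicate 3 and 0.18 without control replicate 4. Its other probe sets had 0.17 and 0.08. Both genes therefore varied more than 2-fold among controls alone.

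The desaturases of polyunsaturated fatty acids, Fads1 and Fads2, had values close to each other. Fads1 had signals of 82, 107, 140 and 63 in controls and 87, 117, 148 and 133 in GR_KO muscle, and a log2 fold change of 0.34 ± 0.25 (SE, adjusted p = 0.880). Fads2 had 37, 42, 48 and 24 against 33, 46, 52 and 52, and a log2 fold change of 0.30 ± 0.27 (SE, adjusted p = 0.881). In both genes control replicate 4 was the lowest array, and without it the values were 0.15 and 0.10. The highest values were 0.54 for Fads1, without control replicate 3, and 0.45 for Fads2, without GR_KO replicate 1. The other Fads1 probe set above the filter had -0.09.

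**Figure D3:**
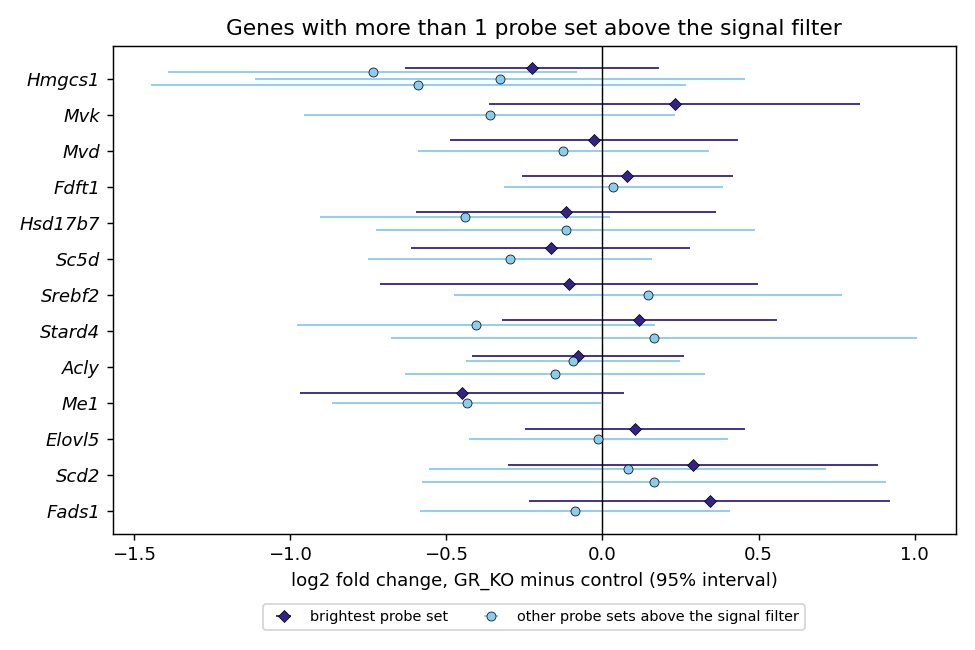
Log2 fold change with 95% interval, GR_KO minus control, for the 13 genes with more than 1 probe set above the signal filter, from limma on 22518 probe sets (4 arrays a group). In 8 of these genes all probe sets had the same sign, Hmgcs1 and Me1 among them, and in 5 at least 1 differed in sign.

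The 11 fatty acid enzymes differed more between control arrays than between the groups. Their mean log2 signal, set against the mean of the controls, was -0.25, 0.19, 0.30 and -0.23 on control replicates 1 to 4, and 0.00223, 0.05, 0.23 and 0.00952 on GR_KO replicates 1 to 4. On control replicate 3, 10 of the 11 lay above their control mean, and on control replicates 1 and 4, 4 of the 11 did. The SD of this mean was 0.28 over controls and 0.11 over GR_KO arrays. For the 15 sterol enzymes the same values stayed between -0.08 and 0.09 on all 8 arrays, with an SD of 0.07 over controls. The median SD of a single fatty acid gene among controls was 0.44 on the log2 scale, beside 0.25 for the sterol enzymes and 0.29 for all genes tested.

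Markers of other cell types also varied between arrays. In whole muscle, fewer cells of a type and less RNA per cell cannot be told apart. The summed signal of 7 Schwann cell and myelin markers was 1642, 1760, 3999 and 1113 on control replicates 1 to 4 and 1469, 2826, 4301 and 3346 on GR_KO replicates 1 to 4, and all 7 had a log2 fold change above 0, with 0 past the threshold. The arrays with the lowest and highest mean log2 level of these markers in each group, control replicates 4 and 3 and GR_KO replicates 1 and 3, were also the lowest and highest for Fads1 and Fads2, GR_KO replicate 4 tying with the highest for Fads2. Of adipocyte markers, 7 of 10 were analysed and 3 were above the filter, with a summed signal of 2222 to 5540 in controls and 2125 to 3671 in GR_KO muscle, nearly all of it from Fabp4, which endothelial cells also express. The adipocyte markers Lep, Cidec, Cidea and Pck1 were below the filter, Lep at a mean signal of 1.75 in both groups. Slow-fibre markers had summed signals of 7233 to 24414 in controls and 14895 to 17977 in GR_KO muscle, with 7 of 8 log2 fold changes above 0. Their mean log2 signal, set against the control mean, was 0.85, -0.26, 0.55 and -1.14 on control replicates 1 to 4. On GR_KO replicates 1 to 4 it was 0.42, 0.38, 0.29 and 0.10. Control replicates 1 and 3 thus lay above every GR_KO array, and control replicate 4 was the lowest array. Endothelial markers had 3003 to 3876 against 3996 to 5600, so these sums did not overlap, with 7 of 8 above 0. Fibroblast and matrix markers had 6526 to 12487 against 11147 to 15864, with 5 of 7 above 0, and the lowest sum was on control replicate 4. Macrophage markers had 554 to 828 against 584 to 819, with 4 of 6 above 0. All 10 fast-fibre markers had a log2 fold change below 0. Set against the mean of the controls, their mean log2 signal was -0.21, -0.24, -0.40 and 0.85 on control replicates 1 to 4. On GR_KO replicates 1 to 4 it was -0.49, 0.20, 0.16 and -0.28. Only control replicate 4 lay above the GR_KO range, and the other controls lay inside it. An unadjusted p under 0.05 in limma was seen in 4.63% of all genes tested. It was seen in 3 of the 8 endothelial and 2 of the 7 fibroblast and matrix markers, with 0 past the threshold. The part of these cells in the values of the lipid genes was not tested.

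**Figure D4:**
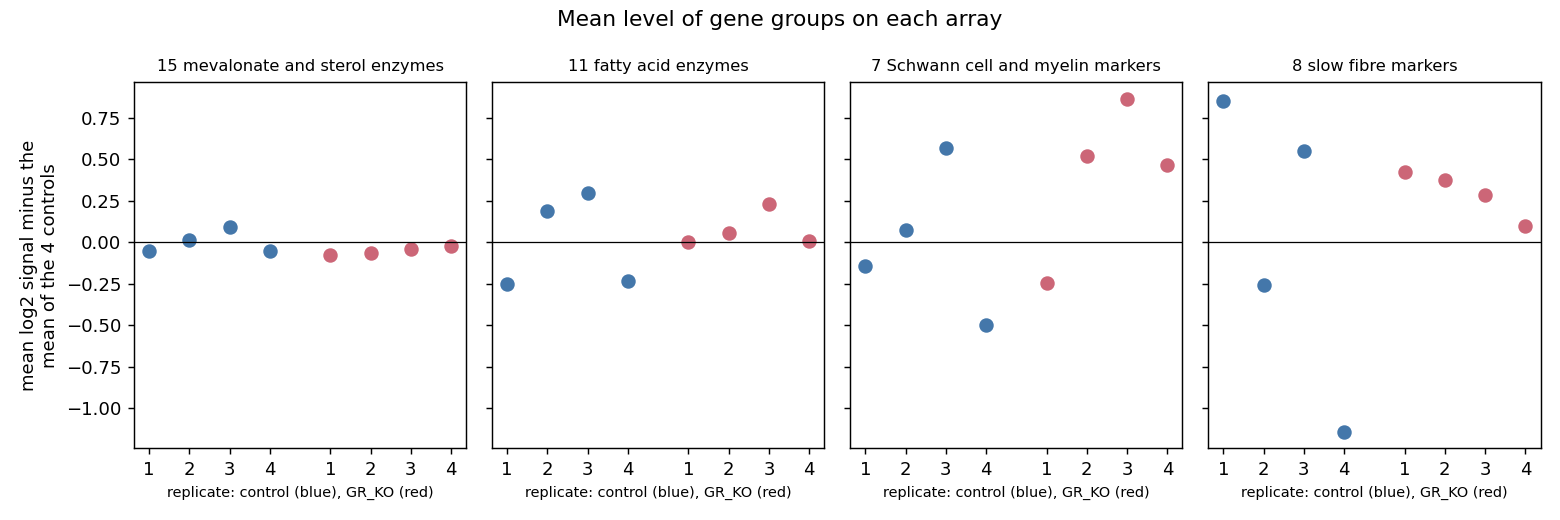
Mean log2 signal of 4 gene groups on each array, minus the mean of the 4 controls, with control arrays in blue and GR_KO arrays in red. The sterol enzymes stay within -0.08 to 0.09. Among controls, the fatty acid enzymes, the Schwann cell and myelin markers and the slow-fibre markers spread more than the sterol enzymes.

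Other genes of these routes, on a list chosen for function and with earlier results of these data known, also gave no call. Of 44 such genes 38 were analysed and 35 tested, and 0 passed the threshold, with 16 log2 fold changes above 0 and 19 below. An unadjusted p under 0.05 was seen in 4 of the 35, beside 4.63% of all genes tested, and all 4 were lower in GR_KO muscle. The groups did not overlap in 3, all lower, where 1.29% of all genes tested were lower without overlap. Because of how the list was chosen, these shares do not show an excess. Those 3 were Npc1, Lpin1 and Cyp27a1.

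Among 12 tested genes of sterol handling, the log2 fold change was below 0 in 10, and its median was -0.09. Npc1, which exports cholesterol from lysosomes, had signals of 322, 344, 342 and 391 in controls and 183, 265, 210 and 280 in GR_KO muscle. Every GR_KO signal lay below every control signal, and the log2 fold change was -0.59 ± 0.16 (SE, 95% interval -0.95 to -0.24, adjusted p = 0.777). Without single arrays it ranged from -0.69 to -0.48. Cyp27a1, the sterol hydroxylase of mitochondria, had 519, 535, 572 and 813 against 395, 462, 444 and 518, so the lowest control and the highest GR_KO signal were 1 unit apart, and its log2 fold change of -0.41 (adjusted p = 0.880) was -0.26 without control replicate 4. Scap, which escorts SREBPs to the Golgi, had 0.28 (adjusted p = 0.880).

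Among 6 tested liver X receptor genes and targets, the median log2 fold change was -0.07. Nr1h3, the receptor LXR-alpha, which induces Srebf1 in liver, had signals of 96, 109, 108 and 89 in controls and 76, 93, 86 and 93 in GR_KO muscle (log2 fold change -0.21, adjusted p = 0.880). Abcg1, a sterol exporter, had 46, 93, 73 and 89 against 89, 81, 42 and 45 (log2 fold change -0.26, adjusted p = 0.894). It ranged from -0.48 without control replicate 1 to -0.08 without GR_KO replicate 3, and was -0.16 without control replicate 4.

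Among 17 tested genes of fatty acid supply and triglyceride synthesis, 12 had a log2 fold change above 0 and 5 below. Lpin1, a phosphatidate phosphatase that also acts as a transcriptional coactivator, had signals of 2419, 2114, 1958 and 1822 in controls and 1302, 1663, 1584 and 1580 in GR_KO muscle. The groups did not overlap at this probe set or at the other, which had 2070, 1768, 1885 and 1796 against 1169, 1724, 1178 and 1656. The log2 fold changes were -0.44 and -0.41, and that of the brightest had an adjusted p of 0.873. Dgat2, which adds the last acyl chain of triglyceride, had 156, 154, 198 and 199 against 122, 144, 121 and 161 (log2 fold change -0.37, adjusted p = 0.880), and its other probe set had -0.30. Thrsp, a lipogenic gene of the thyroid hormone response, had 0.34 (adjusted p = 0.880). Its signals were 275, 354, 308 and 196 in controls and 272, 386, 377 and 384 in GR_KO muscle, control replicate 4 being the lowest array.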

How the data were processed

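Each of the 8 samples gave 1 Affymetrix array. The deposited values are linear signal intensities that the authors made with MAS5, per the submitters' processing notes; no source at hand states its version or scaling target. Median signals per array lay between 18 and 26. Of 45101 probe sets, 64 controls were left out, and 34945 had 1 gene symbol. Signals were log2-transformed without a pseudocount or further scaling, values of 0 being set to the array's smallest positive value. Genes above the median mean log2 signal of all probe sets entered limma (version 3.58.1, R 4.3.3; lmFit, then eBayes with trend), a two-sided test whose p-values were adjusted by Benjamini-Hochberg over the 11062 genes. Python 3.11.15 handled files. The number of arrays limits the precision.

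The 30 genes, the other lists and the rule for named genes were chosen with earlier results of these data known. Named with all signals were the 10 genes with the smallest p, then Srebf1, Srebf2, Hmgcs1, Sqle, Fasn, Acacb and Scd1, with others as examples; of each further list, the 2 with the smallest p. Scap and Thrsp were added after their values were seen. On simulated data for this comparison over 11062 genes, 200 genes were given a change in each run. The fit found 12.9% of those given a log2 change of 0.58, 54.8% at 1 and 90% at 2, and 5.00% of calls were false. The reported fit called only 6 of all genes tested, so these shares may overstate what it could find. Alternatives changed the normalization, pseudocount, filter, probe set rule, prior, array weights, covariates or arrays.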

Additional observations from a re-analysis of the deposited data

How the results depend on the processing

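Under 21 alternatives, 0 of the 30 genes passed the threshold in limma, with 0 to 3 at an unadjusted p under 0.05 and a smallest adjusted p of 0.419, without GR_KO replicate 1. The alternatives were quantile normalization, median centring, pseudocounts of 2 and 6, no filter, a filter at the 70th percentile (23 of the 30 tested), the mean of a gene's probe sets (25 tested), every probe set, no trend in eBayes, array weights, a robust prior, a spike-in covariate, a replicate block and leaving out each array. With every probe set, 27 of 49 were lower and 22 higher, since genes with several probe sets count more than once. With single arrays left out the median log2 fold change ranged from -0.04 to 0.09, and 13 to 18 genes had values above 0. Over all alternatives 16 of the 30 changed sign at least once.

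With probe sets averaged, the sign turned for 8 of 25 genes, Acacb (0.43), Fads2 (-0.24), Srebf2 (0.019), Fdft1 (-0.28), Acly (0.19), Acaca (-0.03), Mvk (-0.06) and Stard4 (-0.04), dim probe sets then weighing as much as bright ones. Srebf2 also turned without control replicate 3 (0.066) or GR_KO replicate 4 (0.082), with a range from -0.29 to 0.082 over single arrays left out, and Fasn with array weights (-0.047) and without control replicate 1 (-0.16), control replicate 4 (-0.062) or GR_KO replicate 2 (-0.071), with a range from -0.16 to 0.30; the cause was not tested. Same-numbered arrays did not deviate together (r of deviations from group means, across genes, -0.19, 0.18, 0.11 and -0.39), so the numbers were not taken as pairs. Over all genes tested, 0 to 10 passed the threshold under these alternatives, against 6 in the reported fit. The replicate block left 0 of the 30 genes past the threshold, with 3 at an unadjusted p under 0.05, and 1 of all genes tested in place of 6.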

Other observations

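The following counts were made after the values had been seen. For each marker list, genes were counted whose lowest and highest array in each group were those of the list's mean log2 level. Of the 30 lipid genes this held for 2 with Schwann cell and myelin markers, Fads1 and Fads2, or 6.67%. It held for 1.91% of the 11055 genes tested outside that marker list, the 30 included. For Fads2, GR_KO replicates 3 and 4 tied as the highest, at 52. Of the 30 it held for 1 with adipocyte markers, Cyp51 (3.33% against 0.434%), and for 0 with endothelial, fibroblast, macrophage, fast-fibre and slow-fibre markers.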
